A study of Bos taurus with 8 samples.

Results

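Histone genes and histone variants were followed in bovine embryos of the 4-cell and 8-cell stage, with and without editing of RPL12. Members were taken by name: symbols of the H1, H2A, H2B, H3 and H4 families in their current or older spelling (such as HIST1H4D), the MACROH2A genes and CENPA, with a mean of at least 0.1 CPM (reads per gene scaled to a library of 1000000 reads) over the 8 libraries. Of 16606 genes in the table, 69 had such a name and 65 passed. The lowest member, H2AC1, had a mean of 0.124 CPM, and the highest gene left out, H2BC11, had 0.0921 CPM.

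Embryos came from oocytes of slaughterhouse ovaries that were matured and fertilised in vitro. The edited group carried the A148G change in RPL12, a protein of the large ribosomal subunit, after the editor PEmax and a guide RNA were injected into the zygote's cytoplasm. The titles call these samples base edited, while the treatment protocol describes prime editing. Whether control zygotes were injected, and what share of alleles carried the change, is not given in the labels. The groups were control and edited embryos at each stage, with 2 libraries per group and 5 embryos pooled in each library. Nothing in the labels says that the 2 libraries of a group came from separate fertilisations, so the p-values measure the spread between these libraries, which may be technical.

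Nucleosomes are built from the core histones H2A, H2B, H3 and H4, and linker histones of the H1 family bind the DNA between them. Replication-dependent histones are made from clustered genes in S phase to package new DNA, and their messages usually end in a stem-loop rather than a poly(A) tail. Variants are made throughout the cell cycle from ordinary polyadenylated messages and replace the replication-dependent forms at chosen places: H2A.Z at promoters, H3.3 at active genes, CENP-A at centromeres and macroH2A on silent chromatin. The oocyte stores histones and histone messages for the first cleavages, and in cattle the embryo's own genome takes over at about the stages sampled here. The libraries were made with a SMART-Seq kit, which primes on poly(A) tails, so a message without a tail is not captured and the levels of replication-dependent genes cover only the captured messages.

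Of the 65 members, 17 were variants and 48 were replication-dependent by symbol. The 48 hold fewer measurements than that, because sets of symbols had the same values in all 8 libraries. The sets were 9 H4 symbols (first symbol H4C19), 8 H2B symbols (first symbol H2BC7), 5 H2A symbols (first symbol H2AC16) and 5 H3 symbols (first symbol H3C12). Each set was counted once, which leaves 42 distinct measurements, 25 of them replication-dependent. Why the values of these symbols are identical was not settled. Reads from near-identical histone copies cannot be assigned to 1 gene, so the value of a single replication-dependent symbol is uncertain. The kit does not mark strand, and reads from an overlapping gene on the other strand cannot be told apart.

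Each library held 33527531 to 35122409 reads over genes. RPL12 itself was at 159 and 174 CPM in the 4-cell controls and at 27.5 and 33.6 CPM in the 4-cell edited libraries. At the 8-cell stage it was at 96.3 and 97.6 CPM in controls and at 14.1 and 11.9 CPM in edited libraries. The edited libraries were below the controls at both stages, although the design names a change of sequence and not a loss of message. Of 16 oocyte and early embryo markers, 15 were in the table and each was detected. Their summed levels were 17558 and 23050 CPM in 4-cell controls and 41327 and 50669 in 4-cell edited libraries. At the 8-cell stage the sums were 45820 and 33425 CPM in controls and 47002 and 50016 in edited libraries. BTG4 alone made 12016 and 14925 CPM of the sums in 4-cell controls and 28841 and 37563 in 4-cell edited libraries. Of the 15 markers, 7 were higher in both edited libraries than in both controls at the 4-cell stage (33.5% of genes tested). At the 8-cell stage 10 were (27.7% of genes tested). The source name of the 4-cell samples reads oocytes, while their titles give 4-cell embryos, and the titles were followed.

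Genes were tested where their mean was at least 1 CPM, which took in 12129 genes, 37 distinct histone measurements and 56 histone symbols. Fold changes are differences of log2(CPM + 1), which understate the change of low genes. A call means an adjusted p under 0.05 in limma with Benjamini-Hochberg adjustment over all genes tested. In edited against control embryos at the 4-cell stage, 8 of 37 histone measurements were higher and 7 were lower, or 15 and 7 of 56 symbols. The background was 44.7% of all genes called, 18.9% higher and 25.8% lower, so the histone share of 40.5% called was near that of genes at large. At the 8-cell stage 3 were higher and 3 were lower, or 16.2%, against a background of 15.6% of genes called, 1.08% higher and 14.5% lower.

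At the 4-cell stage, 5 of the 16 variants tested were called lower and 1 higher, while 7 of the 21 replication-dependent measurements were called higher and 2 lower. The 31.2% of variants called lower lies near the background of 25.8%, and the 33.3% of replication-dependent measurements called higher stands beside a background of 18.9%. The median log2 fold change was -0.38 for variants and 0.79 for replication-dependent measurements, beside -0.02 for all genes. At the 8-cell stage the 3 lower calls were all variants and the 3 higher calls were all replication-dependent linker histones. The 18.8% of variants called lower there lies near the background of 14.5%. There the medians were 0.16 for variants, 0.75 for replication-dependent measurements and 0.00 for all genes. The class difference itself was not tested.

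**Figure D1:**
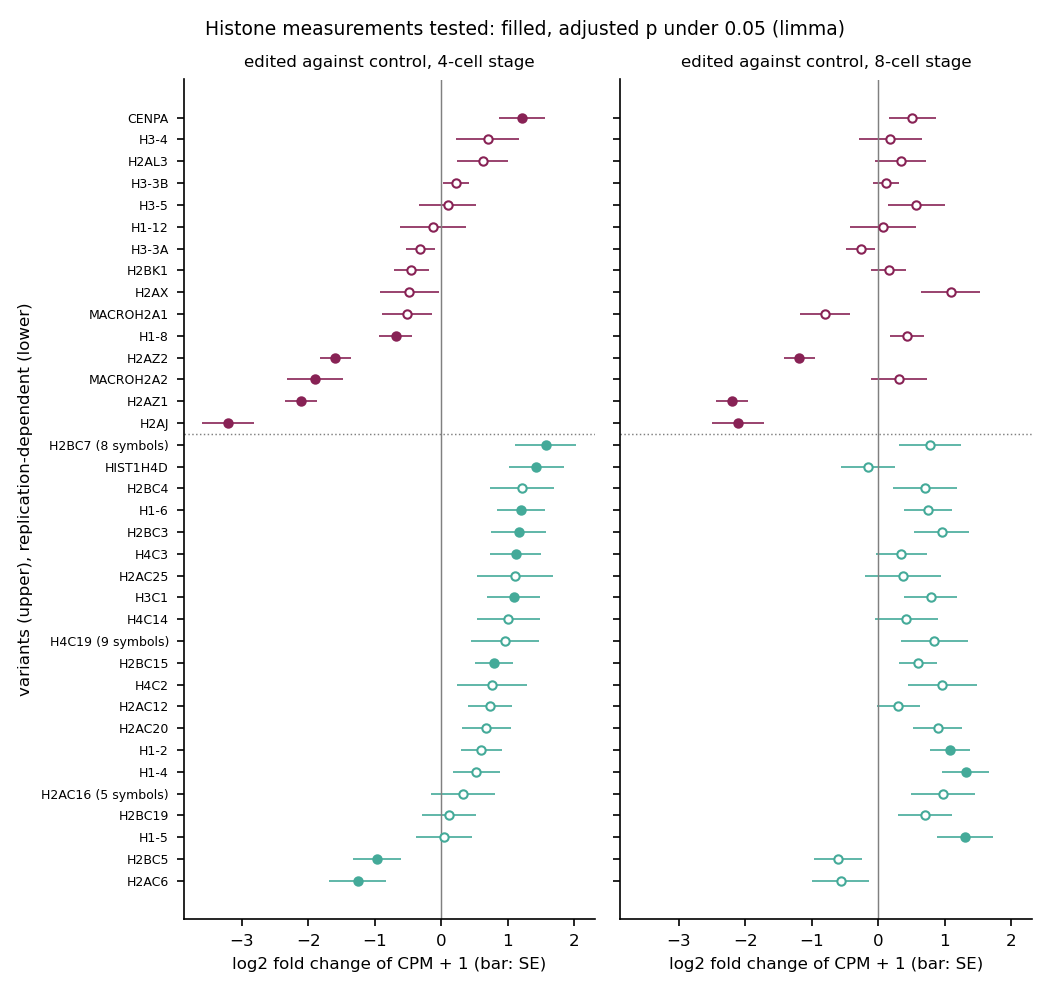
Log2 fold change (edited against control, log2(CPM + 1) scale) of 36 of the 37 distinct histone measurements tested, at the 4-cell and 8-cell stages, with the standard error from limma as bars and calls filled. Replication-dependent measurements lie mostly above 0 at the 8-cell stage (18 of 21), and H2AJ, H2AZ1 and H2AZ2 are called lower at both stages.

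The H2A variants held the largest changes. H2A.Z, which marks promoters and is needed for early mammalian development, is made from a pair of genes, H2AZ1 and H2AZ2. H2AZ1 was at 662 and 854 CPM in the 4-cell controls and at 177 and 169 CPM in the 4-cell edited libraries. It was at 368 and 452 CPM in the 8-cell controls and at 70.9 and 108 CPM in the 8-cell edited libraries. The edited libraries lay far below the controls at both stages with no overlap. The log2 fold change was -2.11 (limma adjusted p = 6.39e-06, SE 0.240) at the 4-cell and -2.21 (limma adjusted p = 1.42e-05, SE 0.240) at the 8-cell stage.

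H2AZ2 was at 319 and 239 CPM in the 4-cell controls and at 95.0 and 86.3 CPM in the 4-cell edited libraries. At the 8-cell stage it was at 140 and 183 CPM in controls and at 74.5 and 65.0 CPM in edited libraries. Again all edited libraries lay below the controls of their stage. The log2 fold change was -1.60 (limma adjusted p = 6.55e-05, SE 0.235) at the 4-cell and -1.19 (limma adjusted p = 0.00187, SE 0.235) at the 8-cell stage. Summed over both genes, the mean level in controls was 3.93 times that in edited embryos at the 4-cell stage and 3.59 times at the 8-cell stage.

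H2AJ, a variant made independently of replication, had the largest fall among the histones at the 4-cell stage, while H2AZ1 fell furthest at the 8-cell stage. It was at 80.2 and 47.9 CPM in 4-cell controls and at 4.92 and 6.84 CPM in 4-cell edited libraries. It was at 17.9 and 32.2 CPM in 8-cell controls and at 3.47 and 6.59 CPM in 8-cell edited libraries. The groups did not overlap at either stage. The log2 fold change was -3.21 (limma adjusted p = 1.13e-05, SE 0.389) at the 4-cell and -2.11 (limma adjusted p = 0.00105, SE 0.389) at the 8-cell stage. The calls of H2AZ1, H2AZ2 and H2AJ at both stages held under every alternative setting that was run.

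**Figure D2:**
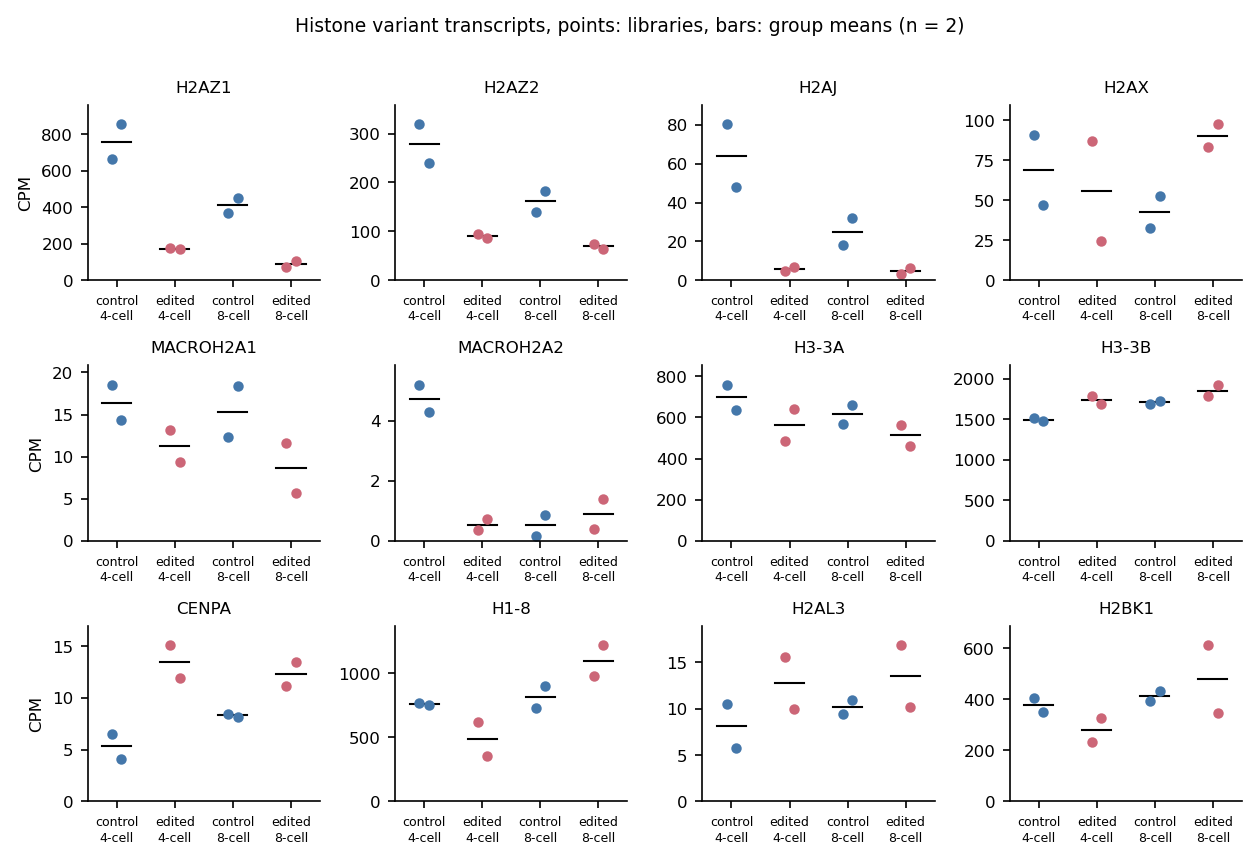
Level in CPM of 12 histone variants in each library (points, coloured by control or edited) with group means as bars, n = 2 libraries per group. H2AZ1, H2AZ2 and H2AJ are lower in both edited libraries than in both controls at each stage, and H1-8 is lower at the 4-cell and higher at the 8-cell stage.

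Both macroH2A genes encode a histone with a large extra domain found on silent chromatin. MACROH2A2 was at 5.19 and 4.28 CPM in 4-cell controls, at 0.347 and 0.731 CPM in 4-cell edited, at 0.172 and 0.857 CPM in 8-cell controls and at 0.388 and 1.41 CPM in 8-cell edited libraries. Only the 4-cell controls were high, and the 8-cell groups overlapped. The fall at the 4-cell stage was called (log2 fold change -1.90, limma adjusted p = 0.00169, SE 0.419), and the 8-cell value was 0.31 (limma adjusted p = 0.682, SE 0.419). The editing effect differed between the stages by 2.21 on the log2 scale (limma adjusted p = 0.0482, SE 0.593), the 1 histone call among 37 in that test, where 3.96% of all genes were called and 1.95% were higher. DESeq2 gave no adjusted p for MACROH2A2 in that test. MACROH2A2 rests on 6 to 47 reads in each library outside the 4-cell controls. Its mean of 1.67 CPM passed the filter of 1 CPM only through the 4-cell controls. Their mean was 4.73 CPM, beside 0.539 in 4-cell edited, 0.514 in 8-cell control and 0.898 CPM in 8-cell edited embryos. All its calls involve that same group, so they are not independent of the filter.

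MACROH2A1 was at 18.5 and 14.3 CPM in 4-cell controls, 13.2 and 9.33 in 4-cell edited, 12.3 and 18.4 in 8-cell controls, and 11.6 and 5.69 in 8-cell edited libraries. Its edited libraries were below the controls at both stages, and neither difference passed the test (8-cell log2 fold change -0.81, SE 0.379, limma adjusted p = 0.183). H2AX, which is phosphorylated at DNA breaks, was at 90.6 and 46.9 CPM in 4-cell controls, 87.3 and 24.5 in 4-cell edited, 32.9 and 52.9 in 8-cell controls, and 83.3 and 97.4 in 8-cell edited libraries. The 4-cell groups overlapped, and at the 8-cell stage both edited libraries were above both controls without a call (log2 fold change 1.09, limma adjusted p = 0.120, SE 0.444). H2AL3 ranged from 5.72 to 16.8 CPM over the libraries, and its groups overlapped at both stages.

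Markers of other cells were read in the same libraries, and whether they vary with H2AZ1, H2AZ2 and H2AJ was not tested. Summed levels of 20 cumulus and granulosa markers were 1584 and 1198 CPM in 4-cell controls, 453 and 486 in 4-cell edited, 604 and 811 in 8-cell controls, and 492 and 462 in 8-cell edited libraries. Of those 20, 14 were lower in both edited libraries than in both controls at the 4-cell stage (background 37.5% of genes tested). At the 8-cell stage 11 were lower in this way (background 32.7%). In the other direction 1 marker (HAS2) was higher without overlap at the 4-cell stage and 3 at the 8-cell stage. All 5 fibroblast and stroma markers were lower without overlap at both stages, beside the same backgrounds. Their sums, made mostly of LUM, were 3051 and 6313 CPM in 4-cell controls and 1313 and 1926 in 4-cell edited libraries. At the 8-cell stage the sums were 3105 and 2570 in controls and 126 and 771 in edited libraries. No marker of these lists was at 0 in every library. Leukocyte markers, 4 of 5 in the table, summed to between 4.50 and 12.4 CPM, and of 6 sperm markers the 1 read here, ODF1, was at most 0.405 CPM. The part of these cells in the histone values was not tested, and fewer cells of a type and less RNA per cell cannot be told apart in pooled embryos.

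H3.3 is made from a gene pair, H3-3A and H3-3B, and is the main H3 deposited outside replication. H3-3A was at 758 and 636 CPM in 4-cell controls, 487 and 639 in 4-cell edited, 568 and 661 in 8-cell controls, and 565 and 462 in 8-cell edited libraries. H3-3B was at 1516 and 1481 CPM in 4-cell controls, 1795 and 1691 in 4-cell edited, 1693 and 1729 in 8-cell controls, and 1788 and 1927 in 8-cell edited libraries. H3-3B was higher in both edited libraries than in both controls at each stage, by log2 differences of 0.22 (SE 0.199) and 0.12 (SE 0.199) that limma did not call (adjusted p = 0.399 and 0.752). H3-3A was not called at either stage (log2 fold change -0.31 and -0.26, SE 0.220, limma adjusted p = 0.265 and 0.490). The sum of both genes stayed between 2117 and 2391 CPM in all 8 libraries.

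CENPA, the centromeric H3, was at 6.52 and 4.13 CPM in 4-cell controls, 15.1 and 11.9 in 4-cell edited, 8.47 and 8.16 in 8-cell controls, and 11.2 and 13.5 in 8-cell edited libraries. Both edited libraries were above both controls at each stage. It rose at the 4-cell stage (log2 fold change 1.21, limma adjusted p = 0.0101, SE 0.350), and the 8-cell value was 0.51 (limma adjusted p = 0.380, SE 0.350). The 4-cell call was lost without the first edited library (limma adjusted p = 0.0636) and without the second control library. H3-4, H3-5 and H3-3D were lower in level, between 0 and 8.16 CPM over the libraries, and H3-3D was not tested.

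Among linker histones, H1-8 is the oocyte form, also known as H1FOO, which the embryo exchanges for somatic H1 during cleavage. It was at 768 and 751 CPM in 4-cell controls, 622 and 356 in 4-cell edited, 727 and 899 in 8-cell controls, and 979 and 1216 in 8-cell edited libraries. The edited libraries were below the controls at the 4-cell stage and above them at the 8-cell stage, with no overlap at either. The 4-cell fall was -0.69 on the log2 scale (limma adjusted p = 0.0357, SE 0.252), a call lost under 8 alternatives, among them scaling by TMM, edgeR, DESeq2 and leaving out either control library or the second edited library. The 8-cell value was 0.43 (limma adjusted p = 0.297, SE 0.252), and the difference between stages was 1.12 (limma adjusted p = 0.0816, SE 0.357). DESeq2 called that difference (adjusted p = 0.047).

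The replication-dependent linker histones gave all 3 higher calls of the 8-cell stage. H1-4 was at 91.7 and 75.3 CPM in 8-cell controls and at 185 and 236 CPM in 8-cell edited libraries, a log2 fold change of 1.32 (limma adjusted p = 0.0153, SE 0.351). H1-2 was at 72.2 and 72.4 CPM in controls and at 167 and 143 CPM in edited libraries, a log2 fold change of 1.08 (limma adjusted p = 0.0207, SE 0.303). H1-5 was at 4.78 and 7.63 CPM in controls and at 16.6 and 16.4 CPM in edited libraries, a log2 fold change of 1.31 (limma adjusted p = 0.0450, SE 0.421). In each of these genes the edited 8-cell libraries stood above both controls, and all 3 calls were lost without the second edited 8-cell library, without the second control 8-cell library and with no filter on low values. Only H1-4 was called without the first control 8-cell library, and edgeR called H1-2 and H1-4 but not H1-5.

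At the 4-cell stage the libraries of the same genes scattered more. H1-4 was at 141 and 72.3 CPM in controls and at 221 and 96.5 CPM in edited libraries. H1-2 was at 78.3 and 48.4 CPM in controls and at 132 and 67.2 CPM in edited libraries. H1-5 was at 10.7 and 4.10 CPM in controls and at 5.50 and 8.80 CPM in edited libraries. The groups overlapped for all 3, and none of these differences was called (log2 fold change 0.53, 0.60 and 0.05, SE 0.351, 0.303 and 0.421, limma adjusted p = 0.238, 0.119 and 0.938). The value of H1-4 turned to -0.07 without the first edited 4-cell library.

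H1-6, a linker histone known from the testis, was at 10.9 and 6.07 CPM in 4-cell controls, 25.4 and 15.9 in 4-cell edited, 21.3 and 17.3 in 8-cell controls, and 25.6 and 42.1 in 8-cell edited libraries. It rose at the 4-cell stage (log2 fold change 1.20, limma adjusted p = 0.0135, SE 0.364), while the 8-cell value of 0.75 (SE 0.364) did not pass (limma adjusted p = 0.202). The groups did not overlap at either stage. H1-12 stayed between 0.380 and 2.26 CPM. The 4 replication-dependent H1 genes summed to 241 and 131 CPM in 4-cell controls, 384 and 188 in 4-cell edited, 190 and 173 in 8-cell controls, and 394 and 437 in 8-cell edited libraries. The edited mean was 1.54 times the control mean at the 4-cell stage, where the groups overlapped, and 2.29 times at the 8-cell stage, where they did not.

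**Figure D3:**
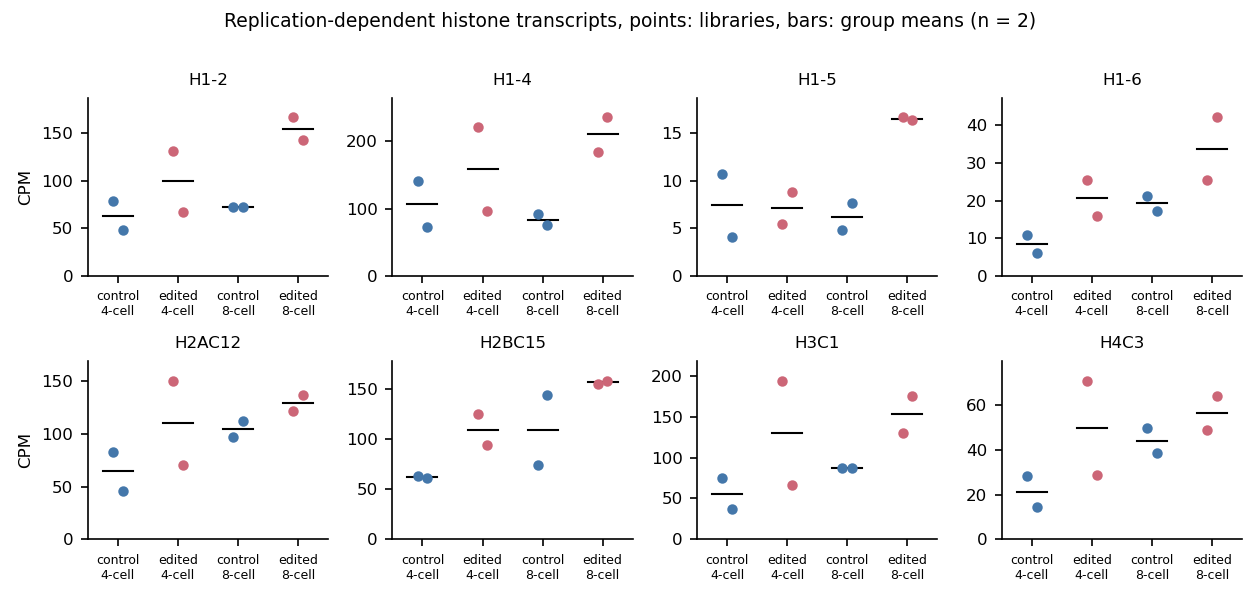
Level in CPM of 8 replication-dependent histone transcripts in each library (points) with group means as bars, n = 2 libraries per group. At the 4-cell stage the first edited library is the higher of its pair in each panel except H1-5. At the 8-cell stage both edited libraries lie above both controls in each panel except H4C3.

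Of 17 replication-dependent core histone measurements tested, 6 rose and 2 fell in edited embryos at the 4-cell stage, or 47.1% called beside the background of 44.7%. At the 8-cell stage limma called 0 of these 17, with 3 at an unadjusted p under 0.05. edgeR and DESeq2 each tested 20 core measurements there and called 0, with 1 and 2 at an unadjusted p under 0.05. Of H2B genes, H2BC15 was at 63.3 and 60.7 CPM in 4-cell controls, 125 and 93.8 in 4-cell edited, 73.8 and 143 in 8-cell controls, and 155 and 158 in 8-cell edited libraries. It was above the controls in both edited libraries of each stage, with a call at the 4-cell stage (log2 fold change 0.79, limma adjusted p = 0.0306, SE 0.281) and none at the 8-cell stage (0.60, limma adjusted p = 0.184, SE 0.281). The set of 8 H2B symbols led by H2BC7 was at 1.10 and 1.06 CPM in 4-cell controls, 9.54 and 2.60 in 4-cell edited, 3.60 and 2.37 in 8-cell controls, and 6.51 and 5.03 in 8-cell edited libraries. This set rose at the 4-cell stage (log2 fold change 1.57, limma adjusted p = 0.0119, SE 0.465) and made 8 of the 15 symbols called higher there.

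H2BC3 and H2BC5, which fell outside the rule for named genes and were chosen after their values were seen, completed the H2B calls at the 4-cell stage. H2BC3 rose by a log2 fold change of 1.17 (limma adjusted p = 0.0301), and H2BC5 fell by 0.97 on the log2 scale (limma adjusted p = 0.0383). Both calls were lost on leaving out any 1 of the 4-cell libraries, and the H2BC5 call was also lost with edgeR, with only the libraries compared and with a replicate block. H2BC19 was at 11.6 and 6.10 CPM in 4-cell controls, 14.0 and 6.03 in 4-cell edited, 10.7 and 14.9 in 8-cell controls, and 22.8 and 19.9 in 8-cell edited libraries, and was not called. H2BK1, the variant H2B, was at 406 and 349 CPM in 4-cell controls, 232 and 326 in 4-cell edited, 394 and 432 in 8-cell controls, and 612 and 347 in 8-cell edited libraries. Its edited libraries were below the controls at the 4-cell stage without a call (limma adjusted p = 0.176), and the 8-cell groups overlapped.

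H3C1 was at 74.7 and 37.2 CPM in 4-cell controls, 194 and 66.2 in 4-cell edited, 87.1 and 86.9 in 8-cell controls, and 130 and 176 in 8-cell edited libraries. Its 4-cell rise was called although the groups overlapped (log2 fold change 1.09, limma adjusted p = 0.0343, SE 0.396), and the 8-cell value was 0.79 without overlap (limma adjusted p = 0.215, SE 0.396). H4C3 was at 28.3 and 14.3 CPM in 4-cell controls, 70.9 and 28.6 in 4-cell edited, 49.8 and 38.5 in 8-cell controls, and 49.0 and 64.2 in 8-cell edited libraries. It rose at the 4-cell stage (log2 fold change 1.12, limma adjusted p = 0.0264, SE 0.386), where the second edited library was only just above the higher control.

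HIST1H4D was at 0.753 and 0.0880 CPM in 4-cell controls, 3.09 and 2.40 in 4-cell edited, 2.26 and 2.07 in 8-cell controls, and 1.23 and 2.64 in 8-cell edited libraries. The 4-cell controls, with 26 and 3 reads, were low, and the rise was called (log2 fold change 1.43, limma adjusted p = 0.00986, SE 0.411). The set of 9 H4 symbols led by H4C19 was at 33.7 and 14.5 CPM in 4-cell controls, 51.3 and 37.5 in 4-cell edited, 17.5 and 11.5 in 8-cell controls, and 12.6 and 54.3 in 8-cell edited libraries. Its 4-cell groups did not overlap, its 8-cell edited libraries lay far apart, and it was not called at either stage. H4C14 ranged from 4.05 to 21.8 CPM and overlapped between groups at both stages. limma did not call it at either stage, while edgeR and DESeq2 called it higher at the 4-cell stage.

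Of the H2A genes, H2AC6 fell at the 4-cell stage, from 1.85 and 2.43 CPM in controls to 0.492 and 0.146 CPM in edited libraries (log2 fold change -1.26, limma adjusted p = 0.0257, SE 0.431). The edited libraries held 17 and 5 reads, and the call was lost with edgeR and on leaving out any 1 of the 4-cell libraries. The mean over all libraries, 1.09 CPM, was just above the filter of 1 CPM. The 4-cell controls, the highest group with a mean of 2.14 CPM, were needed to pass that filter. The call is therefore not independent of the filter, although H2AC6 was also called lower with no filter. At the 8-cell stage its libraries were at 0.515 and 2.25 CPM in controls and at 0.329 and 0.689 CPM in edited embryos, and the groups overlapped. H2AC12 was at 83.2 and 45.4 CPM in 4-cell controls, 150 and 70.6 in 4-cell edited, 96.7 and 112 in 8-cell controls, and 122 and 136 in 8-cell edited libraries. H2AC20 was at 15.2 and 8.59 CPM in 4-cell controls, 25.8 and 13.8 in 4-cell edited, 11.4 and 17.0 in 8-cell controls, and 25.5 and 28.3 in 8-cell edited libraries. Both overlapped at the 4-cell stage, had their edited libraries above the controls at the 8-cell stage, and were not called. The 5 measurements below the test's filter were H3C14, the set led by H3C12, H2BC26, H3-3D and H2AC1, none above 2.46 CPM in any library.

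Summed over the 25 replication-dependent measurements, the level was 586 and 347 CPM in 4-cell controls, 1116 and 538 in 4-cell edited, 580 and 653 in 8-cell controls, and 977 and 1146 in 8-cell edited libraries. The edited mean was 1.77 times the control mean at the 4-cell stage and 1.72 times at the 8-cell stage. The 4-cell groups overlapped and the 8-cell groups did not. At the 4-cell stage the ratio was 1.15 without the first edited library and 1.41 without the second control library. The second library was the lower for 19 of 25 measurements in 4-cell controls and 23 of 25 in 4-cell edited embryos, against 11 of 25 in each 8-cell group.

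**Figure D4:**
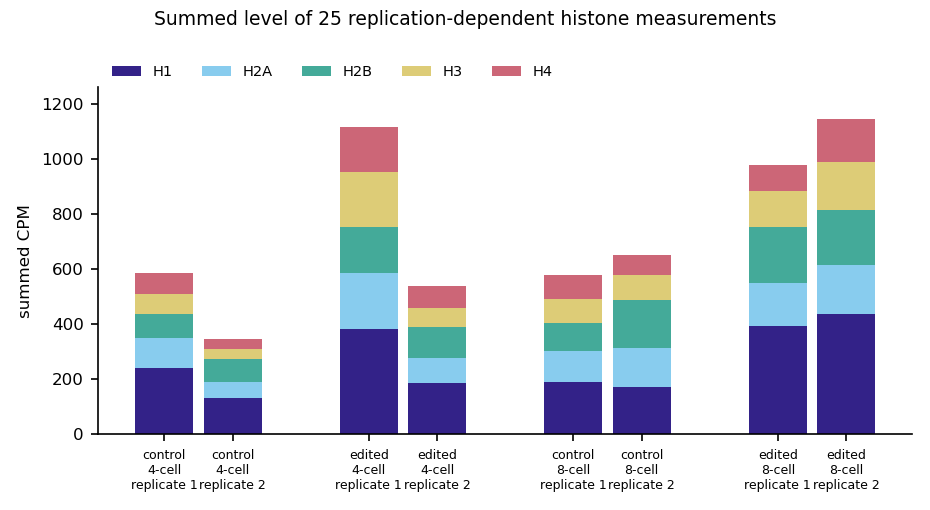
Summed level in CPM of the replication-dependent measurements, split by histone family, in each of the 8 libraries. The first 4-cell edited library (1116 CPM) and both 8-cell edited libraries (977 and 1146 CPM) hold the highest sums, and the second 4-cell edited library (538 CPM) lies between the 4-cell controls.

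The 4-cell calls of the higher members depended on these libraries. Without the first edited 4-cell library limma called 0 of 37 measurements higher and 6 lower, with 10 in either direction at an unadjusted p under 0.05. Without the second control 4-cell library it called 1 higher and 4 lower. With all libraries, edgeR called 10 of the 41 measurements it tested higher at this stage, and DESeq2 called 11 of 42 higher. The groups did not overlap, with edited higher, for 8 of 21 replication-dependent measurements at the 4-cell stage (background 33.5% of all genes) and for 14 of 21 at the 8-cell stage (background 27.7%). Over all 37 measurements, 10 were higher and 9 lower without overlap at the 4-cell stage, where 37.5% of genes were lower, and at the 8-cell stage 18 lay above and 6 below the controls, where 32.7% of genes lay below.

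Between the stages of control embryos, 4 of the 7 H2A variants tested fell. Among them, MACROH2A2 passed the filter of 1 CPM only through the 4-cell controls, the high group here, so its call is not independent of the filter. In control embryos 4 of 37 measurements differed between the 8-cell and 4-cell stages, all lower at the 8-cell stage, where 9.02% of genes were called, 2.75% higher and 6.27% lower. They were MACROH2A2 (log2 fold change -1.95, limma adjusted p = 0.0168, SE 0.419), H2AZ1 (-0.88, limma adjusted p = 0.0356, SE 0.240), H2AJ (-1.33, limma adjusted p = 0.0446, SE 0.389) and H2AZ2 (-0.78, limma adjusted p = 0.0487, SE 0.235). These calls lie close to the threshold, and each was lost without the first 4-cell or the first 8-cell control library. edgeR called 0 histone measurements here, with 10 at an unadjusted p under 0.05, and DESeq2 called 3 lower (H2AZ1, H2AZ2 and H2AJ) and 1 higher (H1-6), with no adjusted p for MACROH2A2.

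From the 4-cell to the 8-cell stage of edited embryos H1-8 rose (log2 fold change 1.21, limma adjusted p = 0.0141, SE 0.252) and H2AZ1 fell (-0.98, limma adjusted p = 0.0310, SE 0.240). Both calls were lost without the second edited 4-cell or the first edited 8-cell library. These were the 2 calls among 37 measurements, with a background of 5.18% of genes called, 1.45% higher and 3.73% lower. In control embryos H1-8 stood at similar levels at both stages, with a log2 difference of 0.09 (limma adjusted p = 0.843, SE 0.252). In control embryos the stages did not overlap for 12 measurements that were higher at the 8-cell stage (background 28.4%) and 4 that were lower (background 30.8%). In edited embryos 7 were higher without overlap (background 22.7%) and 3 were lower (background 30.2%). The editing and stage comparisons share libraries, so a low or high group enters more than 1 of them.

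Genes that act on histone messages and proteins were read from 2 lists. For production and 3' end processing of histone messages, 13 of 16 listed genes were tested, and 6 rose and 1 fell in edited embryos at the 4-cell stage (median log2 fold change 0.36), or 53.8% called beside the background of 44.7%. Of the 13, limma called 0 at the 8-cell stage, with 1 at an unadjusted p under 0.05, and edgeR and DESeq2 also called 0, with 2 each. SLBP, which binds the stem-loop of histone messages, was at 132 and 122 CPM in 4-cell controls, 264 and 203 in 4-cell edited, 166 and 188 in 8-cell controls, and 266 and 254 in 8-cell edited libraries. It was higher in all edited libraries than in the controls of their stage, with a call at the 4-cell stage (log2 fold change 0.86, limma adjusted p = 0.00409, SE 0.216) and none at the 8-cell stage (0.56, limma adjusted p = 0.101, SE 0.216).

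CASP8AP2, known as FLASH, a factor in the cleavage of histone messages, was at 116 and 143 CPM in 4-cell controls, 282 and 365 in 4-cell edited, 243 and 195 in 8-cell controls, and 178 and 211 in 8-cell edited libraries. It rose at the 4-cell stage (log2 fold change 1.31, limma adjusted p = 0.000281, SE 0.229), its 8-cell groups overlapped, and the effect differed between stages by -1.48 (limma adjusted p = 0.0300, SE 0.323). ZFP36L1, an RNA-binding protein, rose by 1.28 and CPSF2, a cleavage factor subunit, by 0.97 at the 4-cell stage (SE 0.289 and 0.237, limma adjusted p = 0.00198 and 0.00345). NCBP2, a cap-binding protein, fell by 0.63 on the log2 scale (limma adjusted p = 0.0343, SE 0.229), a call lost under 9 of 19 alternatives, among them TMM scaling, edgeR, DESeq2 and a replicate block.

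Of 36 histone chaperones and deposition factors, 11 rose and 4 fell at the 4-cell stage (median log2 fold change 0.29), and 1 rose and 1 fell at the 8-cell stage. The shares called, 41.7% and 5.6%, were below the backgrounds of 44.7% and 15.6%. ANP32E, a chaperone that removes H2A.Z, was at 146 and 179 CPM in 4-cell controls and at 405 and 350 CPM in 4-cell edited libraries, a log2 fold change of 1.22 (limma adjusted p = 0.000287, SE 0.213). At the 8-cell stage it was at 279 and 249 CPM in controls and at 283 and 326 CPM in edited libraries, a difference of 0.20 (limma adjusted p = 0.585, SE 0.213). Both 8-cell edited libraries were above both controls, without a call. A link between ANP32E and the levels of H2AZ1 and H2AZ2 was not tested.

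VPS72 and ZNHIT1 are subunits of the complex that exchanges H2A for H2A.Z. VPS72 was at 483 and 453 CPM in 4-cell controls, 452 and 455 in 4-cell edited, 494 and 581 in 8-cell controls, and 1013 and 954 in 8-cell edited libraries. The 8-cell edited libraries were high (log2 fold change 0.87, limma adjusted p = 0.00542, SE 0.199). ZNHIT1 was at 46.9 and 21.5 CPM in 4-cell controls, 10.7 and 7.40 in 4-cell edited, 10.6 and 22.2 in 8-cell controls, and 5.77 and 4.13 in 8-cell edited libraries. It fell at both stages (log2 fold change -1.73 and -1.48, SE 0.422, limma adjusted p = 0.00347 and 0.0231). The VPS72 call was lost without the first control or first edited 8-cell library. The ZNHIT1 calls were lost without the first control library at the 4-cell stage and without the second control or second edited library at the 8-cell stage.

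Chaperones of H3 and H4 moved in both directions. CHAF1A, the large subunit of the complex that loads H3 and H4 onto replicated DNA, was at 53.5 and 46.9 CPM in 4-cell controls, 144 and 74.1 in 4-cell edited, 70.6 and 75.8 in 8-cell controls, and 130 and 104 in 8-cell edited libraries. It was higher in all edited libraries, with a call at the 4-cell stage (log2 fold change 1.03, limma adjusted p = 0.00795, SE 0.285) that was lost without the first edited library. RBBP4, another subunit of that complex, fell by 0.70 and the chaperone ASF1B by 0.63 on the log2 scale at the 4-cell stage (limma adjusted p = 0.0124 and 0.0207), and both calls were lost with TMM scaling, with edgeR and without the first edited library.

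ASF1B was at 337 and 339 CPM in 4-cell controls, 210 and 226 in 4-cell edited, 282 and 302 in 8-cell controls, and 394 and 493 in 8-cell edited libraries. It was below the controls at the 4-cell stage and above them at the 8-cell stage, and the difference between stages was called (log2 1.22, limma adjusted p = 0.0352, SE 0.291). That call, like those of MACROH2A2 and CASP8AP2 for the difference between stages, was lost on leaving out any 1 of 6 libraries, all but the second 4-cell and the second 8-cell control. ATRX, which helps to place H3.3 at repeats, rose at the 4-cell stage by a log2 fold change of 1.32 (limma adjusted p = 0.000636). Its 8-cell groups overlapped (log2 fold change -0.18, limma adjusted p = 0.704). The ATRX effect differed between stages by -1.50 (limma adjusted p = 0.037, SE 0.362), a call lost under 10 of 18 alternatives, among them TMM scaling and edgeR. HIRA, ASF1A and HJURP, chaperones of H3.3, of H3 with H4 and of CENP-A, were not called at either stage.

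NPM2, the oocyte's nucleoplasmin, which stores H2A with H2B, was at 243 and 236 CPM in 4-cell controls, 468 and 248 in 4-cell edited, 393 and 452 in 8-cell controls, and 442 and 471 in 8-cell edited libraries. Only 1 of the 4-cell edited libraries stood clearly above the controls, and the difference was not called (limma adjusted p = 0.123).

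**Figure D5:**
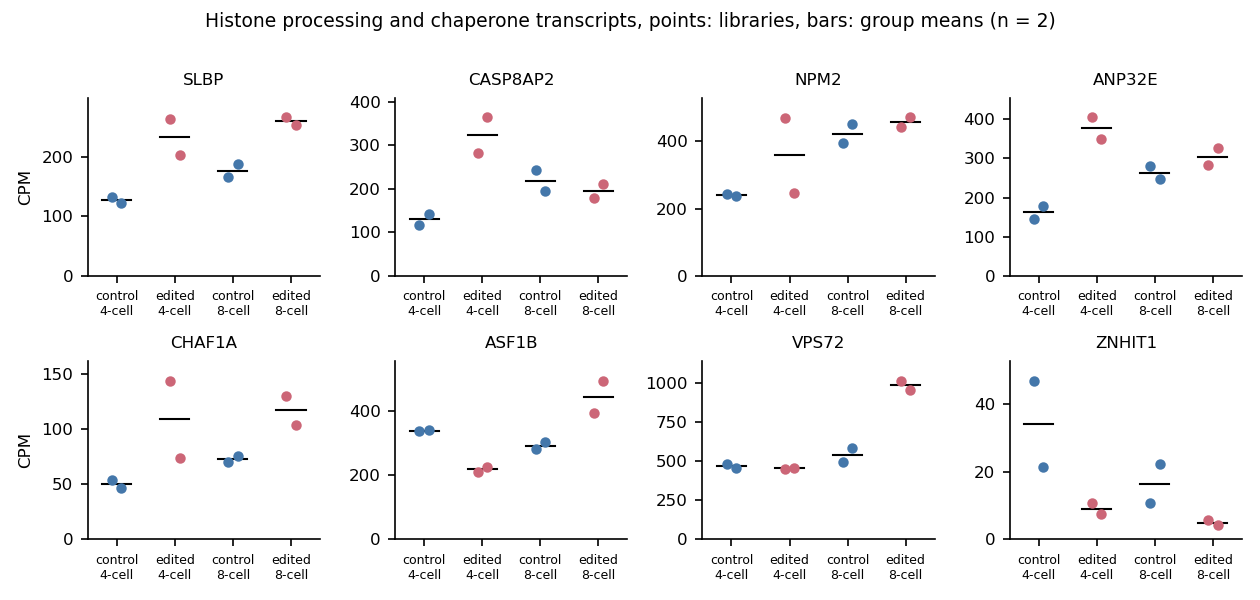
Level in CPM of 8 genes for histone message processing and histone chaperones in each library (points) with group means as bars, n = 2 libraries per group. VPS72 is high only in the 8-cell edited libraries (1013 and 954 CPM), and ZNHIT1 is lower in edited libraries at both stages.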

How the data were processed

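RNA from pools of 5 embryos was captured and amplified by SMART-Seq before Nextera XT library preparation, per the labels' protocols. Trim Galore 0.6.7, HISAT2 2.2.1 and featureCounts 2.0.1 are named in the submitters' processing notes, and the genome build and annotation are not given in the sources used here. The deposited values are CPM: each library sums to about 1000000, and all values are whole multiples of 1 step per library (100% whole within 0.05 reads), from which reads were recovered. The table has 12 columns, of which 8 were used and 4 match no sample given here.

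limma 3.58.1 (R 4.3.3) with an intensity trend was fitted to log2(CPM + 1) of genes averaging 1 CPM or more, with 1 mean for each of 4 groups over all 8 libraries. edgeR 4.0.16 (quasi-likelihood) and DESeq2 1.42.0 on recovered reads, other pseudocounts and filters, TMM scaling, a replicate block and leaving out each library were alternatives, and the code was tested on simulated data. Collapsing identical rows (227 of 12129 genes share all values with another) was added after seeing the data, as was counting such rows once.

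Named members have a mean of at least 10 CPM, or are among the 5 called with the smallest p in each direction of a comparison, or are H1-8, H3-3A, H3-3B, H2AZ1, H2AZ2, H2AX, CENPA or a macroH2A gene. Classes follow the symbol alone, so H1-12 counts as a variant although RefSeq lists HIST1H1E as its synonym. All 65 symbols matched the RefSeq table. Values of 1 member and 1 chaperone gene are not reported here. Members and lists were chosen with earlier results of these data known.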

Additional observations from a re-analysis of the deposited data

Results flagged for a closer look

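The editing effect on MACROH2A2 differed between the stages by 2.21 on the log2 scale in a test of that difference (SE 0.593, limma adjusted p = 0.0482), and the call was lost under 10 alternatives. MACROH2A2 passed the filter of 1 CPM only through the 4-cell controls, the group on which this difference rests. H1-8 was lower in both edited libraries than in both controls at the 4-cell stage and higher in both at the 8-cell stage, a difference of 1.12 on the log2 scale that did not pass limma's test (adjusted p = 0.0816) and was called by DESeq2 (adjusted p = 0.047).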

How the results depend on the processing

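Of 28 histone calls of single genes, 7 held under every alternative that tested them, 21 were lost under at least 1 and 0 reversed. The calls that held were H2AZ1, H2AZ2 and H2AJ at both stages and MACROH2A2 at the 4-cell stage. The filter of 5 CPM left MACROH2A2 untested. Of 20 calls of named processing and chaperone genes, 7 held throughout. Of 21 values given without a call, 8 were called under at least 1 alternative and 4 reversed: H1-4 at the 4-cell stage ranged from -0.066 (without the first edited 4-cell library) to 1.122 (without the second) when 1 library was left out, and MACROH2A2 at the 8-cell stage from -0.087 (without the second edited 8-cell library) to 0.707 (without the first), and was -0.023 without the first 8-cell control. H1-5 at the 4-cell stage was -0.002 with DESeq2 and ranged from -0.551 (without the second control) to 0.645 (without the first), with -0.25 without the second edited library. H1-8 between stages in controls ranged from -0.063 (without the second 8-cell control) to 0.244 (without the first).

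Counts of histone measurements called are given in the order edited against control at the 4-cell stage (15), at the 8-cell stage (6), their difference (1), and stage in control (4) and in edited embryos (2). With no filter they were 9, 3, 0, 0 and 0, with 4, 8 and 6 measurements at an unadjusted limma p under 0.05 in the last 3. The difference gave 0 calls with a pseudocount of 0.1 CPM (4 at an unadjusted p under 0.05), a filter of 5 CPM (2), TMM scaling (4) and edgeR (3), while DESeq2 gave 1, which was H1-8 and not MACROH2A2, for which it gave no adjusted p. Stage in controls gave 1 call with a pseudocount of 0.1 CPM, with TMM scaling and with only the libraries compared, 2 with a filter of 0.1 CPM, and 0 with edgeR (10 at an unadjusted p under 0.05). Stage in edited embryos gave 1 with edgeR. Leaving out 1 library gave 5 to 18, 3 to 6, 0 to 2, 0 to 4 and 0 to 2 calls. Where a group was left with 1 library, it is assumed to vary like the others.

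Whether libraries share a batch across groups was not settled. Over all genes tested, deviations of same-numbered libraries correlated by 0.108 (4-cell), -0.0863 (8-cell), -0.302 (controls) and 0.0234 (edited). The second library was nevertheless the lower for 19 and 23 of 25 replication-dependent measurements in 4-cell control and edited embryos. With a replicate block the counts were 15 (H2BC5 lost and H2BC4 gained), 6, 1, 3 and 2, and with the 8-cell control numbers crossed the stage count in controls was 4. Over all genes that crossed fit called 564 higher and 1126 lower between the control stages, beside 334 and 760 in the main fit. With 2 libraries per group, low members such as MACROH2A2 and HIST1H4D rest on few reads.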

Other observations

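The following ratios were chosen after the values were seen and are given without a test. The level of the oocyte linker histone H1-8 over the sum of the 4 replication-dependent H1 genes was 3.19 and 5.73 in 4-cell controls, 1.62 and 1.89 in 4-cell edited, 3.83 and 5.21 in 8-cell controls, and 2.49 and 2.78 in 8-cell edited libraries. The edited libraries lay below the controls of their stage without overlap, although H1-8 itself was higher in 8-cell edited embryos. The ratio is of CPM and is not corrected for message length.

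H2AZ1 over H2AZ2 was 2.08 and 3.57 in 4-cell controls, 1.86 and 1.96 in 4-cell edited, 2.64 and 2.47 in 8-cell controls, and 0.951 and 1.67 in 8-cell edited libraries. The ratio was lower in both edited libraries than in both controls at each stage.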
